A study of Mus musculus with 9 samples.

Results

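The 26S proteasome is the protease that degrades ubiquitin-tagged proteins in the cytosol and nucleus of every mammalian cell. Its barrel-shaped 20S core is built of outer rings of alpha subunits, which gate the entrance, and inner rings of beta subunits, of which Psmb5, Psmb6 and Psmb7 carry the constitutive catalytic sites. A 19S regulatory particle caps the core. Its base holds a ring of ATPases, the Psmc proteins, that unfold the substrate, and its lid holds subunits that position and remove the ubiquitin chain. Cells can also cap the core with the PA28 activators (Psme1 and Psme2, or Psme3) or with PA200 (Psme4), and cells under interferon exchange the constitutive catalytic subunits for Psmb8, Psmb9 and Psmb10 to form the immunoproteasome.

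The genes described here are the constitutive proteasome subunits and their close partners, chosen by name: every protein-coding gene of the deposited count table named Psma, Psmb, Psmc, Psmd, Psme or Psmf with a number, except Psmb8, Psmb9 and Psmb10. The rule found 41 genes among 56748 in the table, of which 21970 are protein-coding. The rule uses names and no measured value. Of the 41 genes, 40 had enough counts to be tested. The exception was Psmb11, the catalytic subunit of the thymus, which had 0 counts in all 9 libraries. A count of 0 allows up to 3 counts, or at most 0.245 CPM (counts relative to the library total) in the shallowest library, for counting error only.

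The RNA came from MLO-Y4, an osteocyte-like mouse cell line, grown in a transwell below primary articular chondrocytes of C57BL/6J mice aged 5 to 6 days, with the porous membrane of the insert between the cell types. The control libraries came from co-culture with chondrocytes that were not stimulated. In the other groups the chondrocytes had first received 10 ng/mL interleukin-1β (IL-1β) for 6 h, and the co-culture then lasted 24 h in one group and 48 h in the other. Each group has 3 libraries. The culture time of the control group is not given in the labels, so stimulation and time cannot be told apart in any comparison with control. The labels give the cell line of the 48 h samples as MLO-Y5, MLO-Y6 and MLO-Y7 and that of the others as MLO-Y4, while the protocols name MLO-Y4 throughout.

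Total counts ranged from 12250628 to 18515456 per library, and were highest in the 48 h group. Values are CPM after edgeR's TMM scaling of library sizes, and changes are log2 fold changes with their standard error (SE) from edgeR's quasi-likelihood test. A gene was called changed at a Benjamini-Hochberg adjusted p under 0.05 over all 13812 genes tested. Of 12 osteocyte and osteoblast markers 8 were tested. Gja1 and Pdpn were plainly expressed, whereas the mature osteocyte markers Fgf23 and Mepe had 0 counts, Sost at most 1 and Dmp1 at most 6. At 48 h versus control 3 of the 8 were higher (Gja1, Pdpn and Phex) and 4 lower (Alpl, Bglap, Col1a1 and Sp7). Of all genes tested 22.0% were higher and 24.4% lower. Bglap had only 45 to 112 counts, with overlap between the groups, and Sp7 had 14 to 35. The summed level of the osteocyte and osteoblast markers, mostly Gja1 and Col1a1, was 3023 to 3191 CPM in control, 3088 to 3122 CPM at 24 h and 3891 to 3960 CPM at 48 h. The mean of Gja1 was 1498 CPM in control and 2413 CPM at 48 h. Of 12 chondrocyte markers 5 were tested. Acan, Cnmd, Col9a1, Matn1 and Ucma had 0 counts, and Col2a1 had at most 7. At 48 h versus control 3 of the 5 were higher (Col11a1, Comp and Sox9) and 1 lower (Matn3, log2 fold change -1.25). Comp had 1 to 21 counts, Matn3 20 to 60 and Col11a1 21 to 75. The summed level of the chondrocyte markers, mostly Sox9, was 112.4 to 125.8 CPM in control, 106.1 to 113.8 CPM at 24 h and 128.1 to 134.6 CPM at 48 h. Both marker sums were thus higher in the 48 h group than in control. Their part in the values below was not tested. Of 7 macrophage markers 2 were tested, Cd68 (26 to 61 counts) and Csf1r (23 to 61 counts), and Adgre1, Itgam and Tyrobp had 0 counts. Csf1r was lower at 24 h than in control (log2 fold change -0.84, edgeR adjusted p = 0.0377). It was higher at 48 h than at 24 h (0.81, edgeR adjusted p = 0.0062). Cd68 was not called in any comparison.

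Proteasome subunit genes fell together at 48 h. Against control, 34 of the 40 tested genes were lower, 0 were higher and 6 were not called. By the same edgeR test 24.4% of all genes were lower and 22.0% higher. At an unadjusted p under 0.05, 36 of the genes were lower and 0 higher, and DESeq2 called 33 lower and 0 higher. The median log2 fold change of the 40 genes was -0.41, against -0.0022 over all genes tested. In 35 of them every 48 h library lay below every control library, a pattern shown by 27.4% of all genes. Well expressed genes in general leaned downward at 48 h. Among the 4846 genes with a mean of at least 50 CPM, 36.7% were lower and the median log2 fold change was -0.05, and of the 36 proteasome genes in that range 32 were lower.

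The summed level showed the same size of change. The 41 genes together amounted to 6121, 6349 and 5864 CPM in the control libraries. At 24 h they amounted to 6032, 6343 and 6172 CPM, within the control range. At 48 h the sums were 4667, 4588 and 4508 CPM, all below every other library. The mean thus went from 6111 ± 243 CPM (SD, n = 3) in control to 4588 ± 79.4 CPM (SD, n = 3) at 48 h, a difference of -24.9%. CPM are shares of each library's RNA and do not give the amount of RNA per cell. In bulk samples fewer cells expressing these genes and less of their RNA in each cell cannot be told apart.

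**Figure D1:**
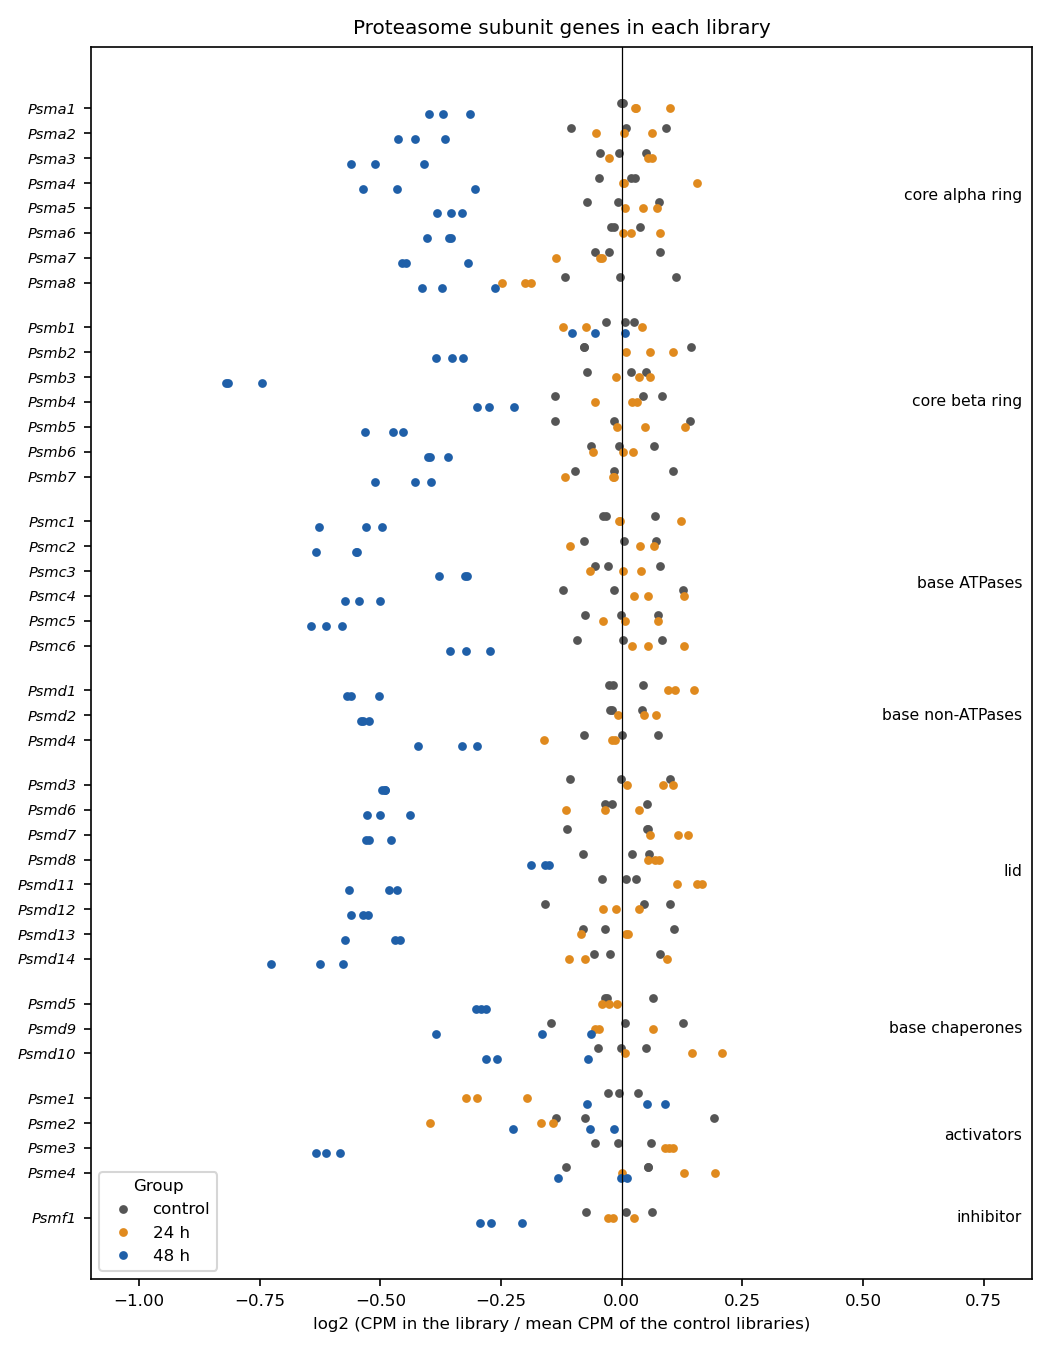
Level of each tested proteasome gene in each library, as log2 of its CPM over the mean CPM of the control libraries, grouped by class; each point is 1 of 9 libraries (control grey, 24 h orange, 48 h blue). The 48 h points lie left of all control points in 35 of 40 genes, and the genes that depart from this are Psmb1, Psmd9, Psme1, Psme2 and Psme4.

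At 24 h almost nothing in this family moved. Of the 40 genes 1 was lower than control, Psme1, and 0 were higher, while 2.90% of all genes were lower and 3.25% higher by the same edgeR test. At an unadjusted p under 0.05, 2 were higher (Psmd1 and Psmd11) and 2 lower (Psme1 and Psme2), and DESeq2 called 0 higher and 1 lower. The median log2 fold change was 0.02, with a range of -0.27 to 0.15. All 24 h libraries lay above all control libraries in 5 genes and below in 3, where 10.3% and 11.2% of all genes did so.

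Between 24 h and 48 h the fall was as large as against control. Of the 40 genes 34 were lower at 48 h than at 24 h and 1, Psme1, was higher, so that 35 were called, where 25.4% of all genes were lower, 23.7% higher and 49.1% called in either direction. In 36 genes all 48 h libraries were below all 24 h libraries, as in 30.3% of all genes, and the reverse held for 1, Psme1, as in 29.1%. The median log2 fold change was -0.41. Both groups of this comparison met stimulated chondrocytes, and the time of each is stated. No unstimulated group has a stated time, so time after stimulation and time in culture cannot be told apart. The cell line in the labels also differs between the 48 h samples and all others, and its part cannot be told apart either. The control libraries entered the comparison of 48 h with 24 h only through the shared scaling, filter and estimate of spread. The comparisons of 24 h and of 48 h with control share their control libraries.

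**Figure D2:**
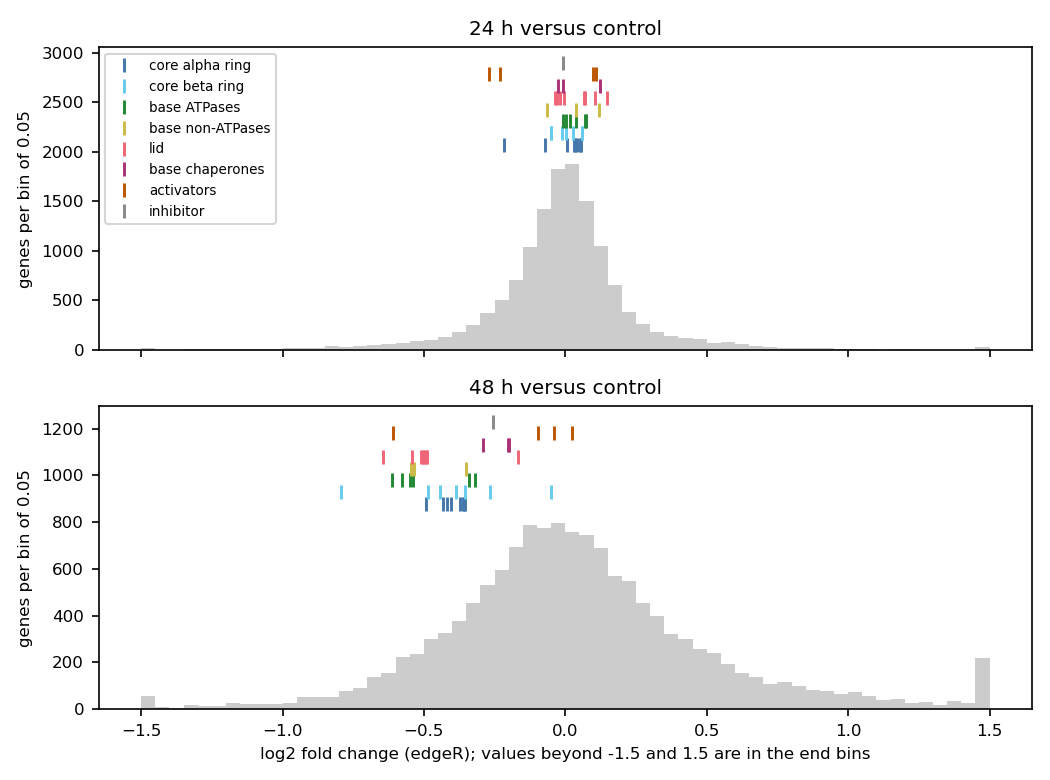
Distribution of log2 fold changes over all 13812 genes tested (grey bars, genes per bin of 0.05), at 24 h versus control above and 48 h versus control below, with 1 tick per proteasome gene, coloured by class; the height of a tick has no meaning. At 24 h the ticks sit near 0 with a median of 0.02, and at 48 h they sit left of it with a median of -0.41.

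The alpha ring forms the gate of the core. All 8 alpha genes were lower at 48 h than in control, with log2 fold changes between -0.49 and -0.35 and a median of -0.39. Psma3 fell most. Its level was 99.5, 103 and 96.9 CPM in the control libraries, 104, 104 and 98.1 CPM at 24 h and 75.2, 70.1 and 67.7 CPM at 48 h. The 48 h libraries did not overlap with either other group (log2 fold change -0.49, SE 0.058, edgeR adjusted p = 1.36e-06). Psma1 was as steady in control as any subunit, at 117.1, 117.4 and 117.2 CPM, and was at 94.3, 90.7 and 88.9 CPM at 48 h.

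Psma8, which replaces Psma7 in the proteasome of male germ cells, was read at a low level. It had 102 to 156 counts per library, and its 48 h value rested on these (log2 fold change -0.35, SE 0.12, edgeR adjusted p = 0.0233). Under 8 of 18 alternative settings it was no longer called. DESeq2 gave an adjusted p of 0.0723, and edgeR gave 0.120 or 0.0519 when the first or the third control library was left out, and 0.0752 or 0.0675 when the first or the third 48 h library was.

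At 48 h versus control the beta ring showed the widest range of log2 fold changes of any class, from -0.79 to -0.05. Of its 7 tested genes 6 were lower at 48 h, and the class held both the largest and the smallest 48 h change among the core genes. Psmb3 (chr11:97594225-97604326, + strand, GRCm39), a structural beta subunit without a catalytic site, had the largest change of the 40 genes. It was at 200.1, 204 and 188 CPM in control, 202, 206 and 196 CPM at 24 h, and 118, 112 and 112 CPM at 48 h. Its 48 h libraries were below all others (log2 fold change -0.79, SE 0.052, edgeR adjusted p = 7.08e-10), a difference of -42.3%.

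Psmb1 (chr17:15695283-15720013, - strand), another structural beta subunit, was the only core gene not called. Its levels were 156, 158 and 152 CPM in control, 148, 160.1 and 143 CPM at 24 h and 156, 145 and 149.7 CPM at 48 h. The 3 groups overlapped (48 h versus control: log2 fold change -0.05, SE 0.055, edgeR adjusted p = 0.480). Psmb1 was singled out after its values were seen, and Psmb3 is named for the largest fall. A higher ratio of Psmb1 to Psmb3 at 48 h therefore follows from the choice of genes. The ratio of Psmb1 to Psmb3 in CPM per kb was 0.395 ± 0.0094 in control, 0.374 ± 0.014 at 24 h and 0.660 ± 0.011 at 48 h (SD, n = 3 each). Both proteins sit in the same ring, but the ratio is of RNA, and its size depends on the gene lengths used.

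The constitutive catalytic subunits all fell. Psmb5, with the chymotrypsin-like site, was at 72.6, 81.1 and 66.7 CPM in control, 73.0, 76.0 and 80.4 CPM at 24 h and 53.7, 52.9 and 50.8 CPM at 48 h (48 h versus control: log2 fold change -0.49, SE 0.069, edgeR adjusted p = 1.39e-05). Psmb6, with the caspase-like site, changed by a log2 fold change of -0.39 (SE 0.053, edgeR adjusted p = 9.17e-06). Psmb7, with the trypsin-like site, changed by -0.44 (SE 0.063, edgeR adjusted p = 1.38e-05). In all 3 of these genes no 48 h library overlapped with control, and none was called at 24 h.

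Their interferon-inducible counterparts moved differently. Psmb8, Psmb9 and Psmb10 had log2 fold changes of -0.30, -0.25 and -0.40 at 24 h versus control, of which that of Psmb10 was called (edgeR adjusted p = 0.00224). At 48 h versus control they had 0.13, 0.26 and 0.12, of which that of Psmb9 was called (edgeR adjusted p = 0.0134). The difference between 48 h and 24 h was called in all 3, with log2 fold changes of 0.43, 0.51 and 0.53. Leaving out 1 library changed 3 calls against control: Psmb8 was called at 24 h without control replicate 3 (edgeR adjusted p = 0.0247), Psmb10 at 48 h without control replicate 2 (0.0367), and Psmb9 was not called at 48 h without 48 h replicate 1 (0.0590).

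As a share of each pair in CPM per kb, Psmb8 made up 9.35 ± 0.28% of Psmb8 plus Psmb5 in control, 7.48 ± 0.83% at 24 h and 13.7 ± 1.24% at 48 h (SD, n = 3 each). Psmb9 made up 6.88 ± 0.15%, 5.88 ± 0.11% and 10.3 ± 0.37% of its pair with Psmb6. Psmb10 made up 55.9 ± 1.54%, 49.7 ± 1.81% and 65.2 ± 0.93% of its pair with Psmb7. Which of these partners is the higher depends on the scale, since in CPM without the length Psmb10 made up 38.7 ± 1.47%, 33.0 ± 1.59% and 48.2 ± 1.02%, and much of the length of Psmb7 is shared with Nek6 on the other strand. The other shares depend on the scale too. In CPM without the length Psmb8 made up 27.9 ± 0.68%, 23.3 ± 2.18% and 37.2 ± 2.4% of its pair. Psmb9 made up 12.6 ± 0.25%, 10.9 ± 0.185% and 18.4 ± 0.60%. In each of the pairs the 48 h shares lay above and the 24 h shares below all control shares, on both scales. These shares are of RNA and say nothing of the subunits in assembled particles.

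**Figure D3:**
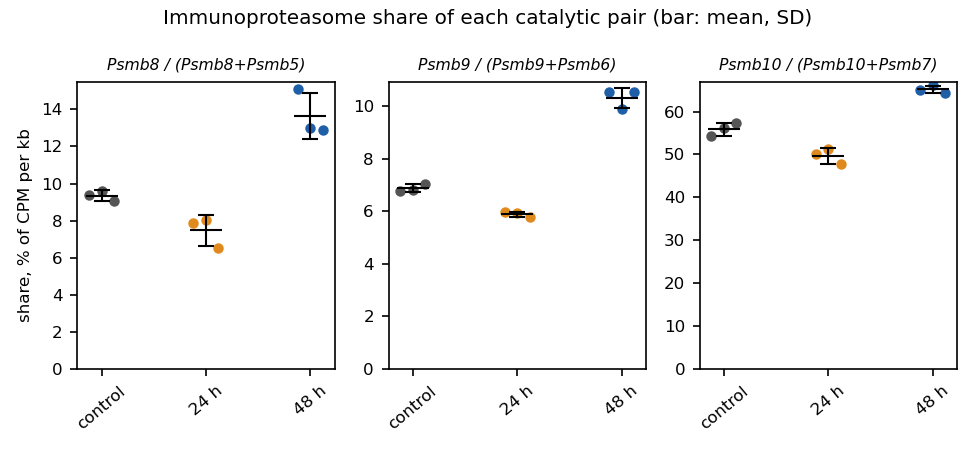
Share of the immunoproteasome gene in each catalytic pair, in percent of the pair's CPM per kb, by group; points are libraries, and bars are the mean and SD (n = 3). In each panel the 48 h points are highest and the 24 h points lowest, with means of 13.7%, 10.3% and 65.2% at 48 h from left to right.

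The ATPases of the base pull the unfolded substrate into the core. All 6 Psmc genes were lower at 48 h, with a median log2 fold change of -0.54 and a range of -0.61 to -0.32. Psmc5 (chr11:106146980-106153946, + strand) had the largest change. It was at 227, 239 and 215 CPM in control, 228, 239 and 221 CPM at 24 h and 152, 145 and 148 CPM at 48 h, with no overlap at 48 h (log2 fold change -0.61, SE 0.052, edgeR adjusted p = 2.60e-08). At 24 h none of the 6 was called, and none had an unadjusted p under 0.05.

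The non-ATPase subunits of the base are the scaffolds Psmd1 and Psmd2 and the ubiquitin receptor Psmd4, and all 3 were lower. Psmd1 was at 225, 224 and 235 CPM in control, 246, 244 and 253 CPM at 24 h and 161, 155 and 154 CPM at 48 h. Its 3 groups did not overlap. The 24 h difference from control was not called (log2 fold change 0.12, SE 0.047, edgeR adjusted p = 0.165), and the 48 h difference was (log2 fold change -0.54, SE 0.047, edgeR adjusted p = 3.19e-08). Psmd2, the subunit with the highest CPM of the family, changed by -0.53 at 48 h.

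In the lid all 8 genes were lower, with a median log2 fold change of -0.50. Psmd14 (chr2:61542038-61630720, + strand), the deubiquitinase that cuts the chain from the substrate, had the largest change. It was at 124, 116 and 113 CPM in control, 109, 125 and 112 CPM at 24 h and 76.2, 78.8 and 71.0 CPM at 48 h, with no overlap at 48 h (log2 fold change -0.64, SE 0.065, edgeR adjusted p = 2.01e-07). Psmd8 had the smallest, at -0.17 (edgeR adjusted p = 0.0138). It was no longer called when control replicate 1 (edgeR adjusted p = 0.0940) or 48 h replicate 3 (0.0619) was left out.

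Over the whole regulatory particle 17 of 17 genes were lower, and over the core 14 of 15 tested. The summed level of the regulatory particle differed by -28.4% from control and that of the core by -23.2%. The ratio of the sums, regulatory particle over core, was 1.747, 1.760 and 1.788 in the control libraries, 1.799, 1.793 and 1.799 at 24 h and 1.621, 1.667 and 1.647 at 48 h. The 48 h libraries were therefore below all others in this ratio as well. It is given without a test.

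At 48 h the 32 tested subunits of the 26S particle, from Psma1 to Psmd14 without the chaperones, all had negative log2 fold changes. These ran from -0.05 (Psmb1) to -0.79 (Psmb3), with an SD across genes of 0.14 and quartiles of -0.53 and -0.36. Across all genes tested the SD was 0.52 and the quartiles were -0.24 and 0.26, and across genes of at least 50 CPM the SD was 0.37. At 24 h the SD across the subunits was 0.067, against 0.30 over all genes and 0.175 over genes of at least 50 CPM. Genes are not replicates, and these values are given as a description.

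Psmd5, Psmd9 and Psmd10 are chaperones that assemble the base and leave the finished particle. At 48 h 1 of these 3 was lower than control, where 24.4% of all genes were. Psmd5 was at 108, 101 and 101 CPM in control, 100.3, 103 and 101 CPM at 24 h and 83.8, 84.3 and 84.9 CPM at 48 h, below all control libraries (log2 fold change -0.29, SE 0.052, edgeR adjusted p = 1.56e-04). Psmd9 overlapped with control at -0.20 (edgeR adjusted p = 0.0660), and Psmd10 did not overlap at -0.20 but was not called (edgeR adjusted p = 0.0735). Psmd9 was called when control replicate 3 (edgeR adjusted p = 0.0220) or 48 h replicate 2 (0.0280) was left out, and Psmd10 when 48 h replicate 2 was left out (0.0352).

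**Figure D4:**
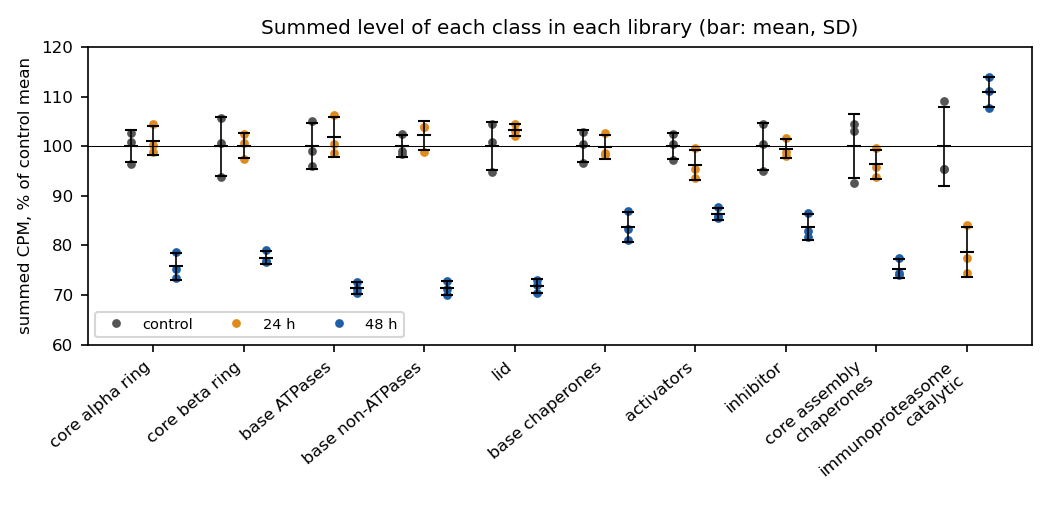
Summed CPM of each class in each library as a percentage of its control mean; points are libraries, bars are the mean and SD (n = 3), and the vertical axis starts at 60%. At 48 h the classes of the 26S particle sit at 70.1% to 79.2% of the control mean, base chaperones, activators and the inhibitor at 81.0% to 87.7%, and the immunoproteasome catalytic genes at 107.8% to 113.9%.

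The activators split. Psme3 (chr11:101207039-101214363, + strand), the nuclear PA28 gamma, followed the core and regulatory particle. It was at 215, 205 and 198 CPM in control, 219, 222 and 220.4 CPM at 24 h and 135, 137 and 133 CPM at 48 h. The 48 h libraries were below all others (log2 fold change -0.61, SE 0.049, edgeR adjusted p = 1.02e-08), and the 24 h libraries were above all control libraries without a call (log2 fold change 0.10, edgeR adjusted p = 0.290).

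Psme1 (chr14:55815580-55818986, + strand), PA28 alpha, which pairs with Psme2 in the interferon-inducible cytosolic cap, went another way. It was at 140.4, 147 and 143 CPM in control, 116, 125 and 115 CPM at 24 h and 153, 149 and 136 CPM at 48 h. All 24 h libraries were below all control libraries (log2 fold change -0.27, SE 0.057, edgeR adjusted p = 0.00593), whereas the 48 h libraries overlapped with control (log2 fold change 0.02, edgeR adjusted p = 0.749). The difference of 48 h from 24 h was itself called (log2 fold change 0.30, SE 0.057, edgeR adjusted p = 2.81e-04). The 24 h call was lost without 24 h replicate 3 (adjusted p = 0.0518).

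Psme2, PA28 beta, was at 132, 159 and 126 CPM in control, 105, 124 and 126 CPM at 24 h and 137, 119 and 133 CPM at 48 h. It had the widest spread in control among the 40 tested proteasome genes, with a coefficient of variation of 12.5%. The 24 h libraries were below all control libraries but were not called (log2 fold change -0.23, SE 0.084, edgeR adjusted p = 0.126). Without control replicate 3 the 24 h difference was called (log2 fold change -0.29, adjusted p = 0.0262).

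Psme4, PA200, which caps the core without ATP and is known for histone turnover, was at 108, 95.6 and 107 CPM in control, 113, 118 and 104 CPM at 24 h and 94.4, 103 and 104 CPM at 48 h. The groups overlapped (48 h versus control: log2 fold change -0.04, SE 0.065, edgeR adjusted p = 0.642). Psmf1, the inhibitor PI31, was at 47.8, 49.6 and 45.1 CPM in control, 46.9, 46.6 and 48.3 CPM at 24 h and 38.8, 39.4 and 41.2 CPM at 48 h. Its 48 h libraries were below all others (log2 fold change -0.26, SE 0.063, edgeR adjusted p = 0.00260).

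The PA28 genes can be set against each other per length. In CPM per kb the ratio of Psme1 to Psme3 was 0.930 ± 0.050 in control, 0.719 ± 0.031 at 24 h and 1.44 ± 0.072 at 48 h (SD, n = 3 each), with no overlap between any of the groups. That of Psme1 to Psme2 was 0.831 ± 0.084, 0.806 ± 0.077 and 0.902 ± 0.091, and here the groups overlapped.

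**Figure D5:**
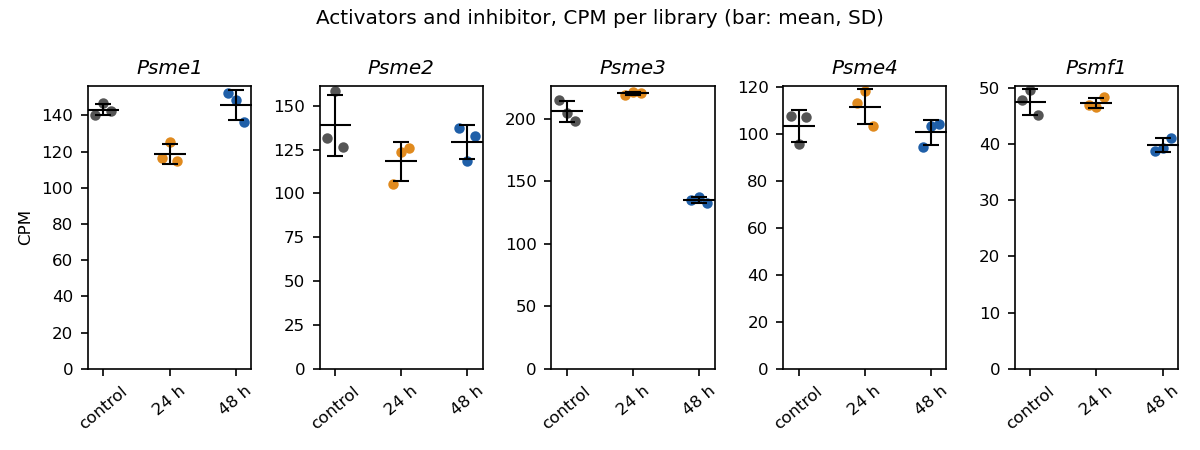
CPM of the activator genes Psme1 to Psme4 and of the inhibitor gene Psmf1 in each library; points are libraries, bars are the mean and SD (n = 3), and each axis starts at 0. Psme1 is lowest at 24 h (114.6 to 125.1 CPM), Psme3 and Psmf1 are lowest at 48 h, and the groups of Psme4 overlap.

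In levels per kb of gene length, the subunit genes covered a wide range in control, from Psmb4 at 171.5 CPM per kb, Psmc5 at 162.8 and Psmd2 at 125.0 down to Psmf1 at 7.38, Psmd9 at 5.70 and Psma8 at 3.63. In control the SD was 13.7 CPM per kb for Psmb4 and 8.47 for Psmc5, so the order of these 2 is uncertain there. Both were again the highest at 48 h, at 142.6 ± 3.89 and 106.5 ± 2.345 CPM per kb (SD, n = 3 each). Psmf1, Psmd9 and Psma8 were again the lowest. The order between genes depends on the deposited gene lengths, such as 1951 bases for Psmb4 and 7248 for Psmd9. Psmb3 went from rank 9 of 40 to rank 15, Psme1 from rank 17 to 10, Psme2 from rank 12 to 7 and Psmb1 from rank 30 to 23. The spread between replicates was close to that of other well expressed genes. For the 36 proteasome genes of at least 50 CPM the median coefficient of variation was 4.99% in control, 3.70% at 24 h and 2.90% at 48 h, and over all genes in that range it was 5.71%, 3.65% and 3.32%.

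Genes around the proteasome were read from lists that hold assembly factors, associated enzymes, ubiquitin, shuttle proteins and transcriptional regulators. Of these 39 tested genes outside the immunoproteasome, 22 were lower and 5 higher at 48 h versus control, where 24.4% of all genes were lower and 22.0% higher. Their median log2 fold change was -0.25. At 24 h 1 was higher and 0 lower by edgeR (3.25% and 2.90% of all genes), with 6 higher and 0 lower at an unadjusted p under 0.05, and DESeq2 also called 1 higher and 0 lower. At 48 h versus 24 h 27 were lower and 2 higher (25.4% and 23.7% of all genes).

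All 5 genes of core assembly that were read were lower at 48 h. Paaf1 was also planned for this list and has no value here. Psmg3, which helps to build the alpha ring, had the largest change (log2 fold change -0.65, edgeR adjusted p = 1.75e-04), and Pomp, which matures the beta ring, had -0.39. Of 9 further subunits and associated proteins 7 were lower. Uchl5, a deubiquitinase bound to the base, had the largest change (-0.68, edgeR adjusted p = 3.56e-06), and 1 was higher, Zfand5, which is known to stimulate degradation (0.35). Of 9 shuttle and unfoldase genes 7 were lower, with Ubqln4 at -0.62 (edgeR adjusted p = 4.69e-08) and the segregase Vcp at -0.35.

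Of 6 genes for ubiquitin and its activating enzymes 1 was lower and 1 higher at 48 h, where 24.4% and 22.0% of all genes were. The lower one was the main E1 enzyme Uba1 (log2 fold change -0.40, edgeR adjusted p = 3.09e-06). The higher one was the polyubiquitin gene Ubb (0.22). Of 10 transcriptional regulators 3 were higher at 48 h (Ddi2, Maff and Nfe2l2) and 2 lower, close to the 22.0% and 24.4% of all genes. Among these Nfyb, a subunit of the CCAAT-binding factor NF-Y, had the largest change (-0.45, edgeR adjusted p = 1.54e-05).

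Nfe2l1 encodes Nrf1, the factor known to raise proteasome genes when degradation is impaired, a control exerted largely on the protein. Its RNA was at 609, 607 and 635 CPM in control, 724, 669 and 713 CPM at 24 h and 584, 596 and 591 CPM at 48 h. It was higher than control at 24 h (log2 fold change 0.19, SE 0.042, edgeR adjusted p = 0.0104) and was not called at 48 h versus control (-0.06, edgeR adjusted p = 0.228), although the 48 h libraries lay below all control libraries. The 24 h difference was no longer called when 24 h replicate 1 (edgeR adjusted p = 0.0825) or replicate 3 (0.0599) was left out.

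The promoters of proteasome genes are known for antioxidant response elements, the site of Nrf1 and Nrf2. In the 250 bases before the RefSeq start, which were available for 34 of the 41 genes, the letters TGACNNNGC on either strand occurred in 5 (14.7%), where 14.0% of the tested genes with such a window held them. The matches in Psmb5, Psmb6, Psmc6, Psmd12 and Psmd9 are given here because this is the element best known in this family. Capitals mark the match and, in Psmd9, a GC box that overlaps it. The sequences are on the strand of the gene. The windows come from the RefSeq promoter table of GRCm38.p6 and were placed on GRCm39 by exact match, and only bases outside annotated exons are printed.
Psmb5, chr14:54855482-54855515 (-): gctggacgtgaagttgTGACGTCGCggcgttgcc
Psmb6, chr11:70416158-70416182 (+): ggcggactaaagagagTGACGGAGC
Psmc6, chr14:45567038-45567078 (+): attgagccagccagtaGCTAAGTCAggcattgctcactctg
Psmd12, chr11:107370104-107370131 (+): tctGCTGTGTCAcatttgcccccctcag
Psmd9, chr5:123366206-123366246 (+): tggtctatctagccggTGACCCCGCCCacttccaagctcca

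In Psmb5, Psmb6 and Psmd9 the match began 47, 9 and 31 bases before the RefSeq start, on the strand of the gene. For Psmd9 that start lies inside the gene as the count table delimits it (chr5:123307476-123388194, + strand), so its stretch is not upstream of the outermost annotated start. In Psmc6 and Psmd12 it lay on the opposite strand, 227 and 247 bases before the RefSeq start at its far end. Of these 5 genes 4 were lower at 48 h and Psmd9 was not called. Among all 34 genes with a window 28 were lower, and among all genes tested 24.4% were.

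CCAAT occurred in 13 of the 34 windows (38.2%, against 40.9% of tested genes) and the GC box GGGCGG in 20 (58.8%, against 64.3%). The core of the interferon-stimulated response element occurred in 3 (8.82%, against 3.17%), namely Psmb3, Psmd4 and Psmd9, and the gamma-activated site TTCNNNGAA in 0 (against 7.07%). All were searched on both strands. The 100 bases that end 13 bases before the RefSeq start of Psmd14, the lid gene with the largest fall, are shown as an example of the GC-rich kind, with its GC boxes, read on the opposite strand, in capitals.
Psmd14, chr2:61541926-61542025 (+): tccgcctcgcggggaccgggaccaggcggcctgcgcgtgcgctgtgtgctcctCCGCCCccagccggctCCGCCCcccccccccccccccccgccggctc

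Some subunit genes share exon bases with a gene on the opposite strand, and the strand setting of the counting is not stated. In 8 of them the neighbour held at least 5% as many counts. Psmb7 shared up to 2782 bases with Nek6, whose counts were 117% of those of Psmb7 and which was higher at 24 h (log2 fold change 0.46) and at 48 h (0.40). Psmd10 shared up to 66 bases with Atg4a, which held 71.6% as many counts (log2 fold change -0.30 at 48 h). Psmc3 shared up to 147 bases with Slc39a13, which held 47.8% as many (0.26 at 48 h). Psmc5 shared 405 bases with Smarcd2, at 57.0% of its counts (log2 fold change -0.24 at 48 h). Psme1 shared 1204 bases with Emc9, whose counts were 11.5% of those of Psme1, and Psme2 shared 731 bases with Rnf31 (24.0%). The part of these neighbours in the values was not tested. Psmb1, Psmb3, Psmd14 and Psme3 had no such neighbour in the annotation. Psme2b, a single-exon relative of Psme2, had 591 to 990 counts, and whether reads were divided between them was not tested.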

How the data were processed

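RNA of 9 libraries of MLO-Y4 cells was read from both ends with a directional kit. The authors deposited raw counts per gene, made by HISAT2 alignment to GRCm39 and featureCounts. The sources differ on the featureCounts version (2.06 in the processing notes), the methods also name RSEM, and the strand setting is not given in the sources used here. Groups came from the labels, which do not say whether replicates were separate cultures, so p-values measure the spread between these samples only.

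The count table was fitted whole with edgeR 4.0.16 (limma 3.58.1, R 4.3.3) as 1 quasi-likelihood model of 3 groups with 6 residual degrees of freedom, after filterByExpr with a minimum count of 10 (13812 genes, 99.9% of counts) and TMM scaling. P-values are two-sided and were adjusted by Benjamini-Hochberg over these genes. DESeq2 1.42.0, other scalings and filters, a gene length correction, a replicate block and the omission of each library were the alternatives. Total counts were 12250628 to 18515456 per library. The procedure was tested on simulated data. Every tested subunit could be named; values in every library were given for members called at 24 h, the called member with the largest 48 h change in each class, the activators and the inhibitor. Other genes named are the catalytic pairs, Nfe2l1 and the called gene with the largest change in each list. Psma1, Psmb1, Psmb5 and the other listed genes named were added after their values were seen. The members and lists were chosen with earlier results of these data known. The file holds no comparison columns of the authors.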

Additional observations from a re-analysis of the deposited data

Results flagged for a closer look

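The change from control differed between 24 h and 48 h, by the edgeR test of 48 h versus 24 h at an adjusted p under 0.05, in 35 of the 40 tested proteasome genes, where 49.1% of all genes were called in either direction. The values here are log2 fold changes of 48 h versus 24 h.

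In the alpha ring they were -0.41 for Psma1, -0.42 for Psma2, -0.52 for Psma3, -0.49 for Psma4, -0.40 for Psma5, -0.41 for Psma6 and -0.33 for Psma7. In the beta ring they were -0.41 for Psmb2, -0.82 for Psmb3, -0.27 for Psmb4, -0.54 for Psmb5, -0.37 for Psmb6 and -0.39 for Psmb7.

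In the base they were -0.59 for Psmc1, -0.58 for Psmc2, -0.33 for Psmc3, -0.61 for Psmc4, -0.63 for Psmc5, -0.39 for Psmc6, -0.66 for Psmd1, -0.57 for Psmd2 and -0.29 for Psmd4. In the lid they were -0.56 for Psmd3, -0.45 for Psmd6, -0.61 for Psmd7, -0.23 for Psmd8, -0.65 for Psmd11, -0.54 for Psmd12, -0.48 for Psmd13 and -0.62 for Psmd14. The base chaperones Psmd5 and Psmd10 had -0.27 and -0.33, the activator Psme3 had -0.71 and the inhibitor Psmf1 had -0.25. Psme1 was the only one with a positive value, 0.30.

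Among the other genes named, the immunoproteasome genes Psmb8, Psmb9 and Psmb10 had 0.43, 0.51 and 0.53. Uchl5 had -0.69, Psmg3 -0.61, Ubqln4 -0.63, Uba1 -0.45, Nfyb -0.51 and Nfe2l1 -0.25.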

How the results depend on the processing

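Of the 40 tested genes, 33 kept their direction and their side of the threshold at 48 h versus control under all 18 alternatives, and 37 did so at 48 h versus 24 h. Genes lower at 48 h versus control numbered 32 to 36 with 1 library left out, 35 with the replicate block and 33 by DESeq2. At 24 h versus control, genes lower numbered 2 without the filter on low counts and between 0 (without 24 h replicate 3) and 2 (without control replicate 3) with 1 library left out, and genes higher numbered 1 (Psmd7) with the gene length trend removed. Pathway genes higher at 24 h numbered 3 without the filter, 2 with the length trend removed, 0 at an adjusted p under 0.01, and 0 (without 24 h replicate 3) to 2 (without control replicate 1 or 3) with 1 library left out. Pathway genes higher at 48 h versus 24 h numbered 4 by library size only, 1 without the filter, 1 at an adjusted p under 0.01, and 1 (without 24 h replicate 1) to 3 (without control replicate 2) with 1 library left out. The causes were not tested.

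Among the genes checked the sign turned only where the reported value was not called. The check covered all tested subunits in both 48 h comparisons, but only part of them at 24 h versus control. Of the other named genes it covered a part. Psmf1 at 24 h versus control was 0.0086 without the filter and -0.0357 to 0.0268 with 1 library left out. At 48 h versus control the ranges with 1 library left out were -0.0102 to 0.075 for Psme1, -0.146 to 0.0178 for Psme2 and -0.0824 to 0.0028 for Psme4. Psmb1 at 48 h versus 24 h was 0.0063 with DESeq2 size factors and with the DESeq2 test, 0.0389 by library size only, 0.0014 with only the 2 groups compared, 0.0011 with the replicate block, 0.0021 with the length trend removed, and -0.03 to 0.0564 with 1 library left out. The summed level of the 41 genes at 48 h versus control was -23.9% by library size only and -21.5% per kb.

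Same-numbered libraries of different groups correlated at -0.049 to 0.077 in their deviations, so the replicate numbers were not taken to pair them. The block added Psmd9 to the genes lower at 48 h. With 3 libraries a group and 102 to 156 counts, the value of Psma8 is the least certain. Nothing here measures protein or proteasome activity.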
